A study of Mus musculus with 18 samples.

Results

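The 10 cartilage program genes described here are Acan, Sox9, Sox5, Sox6, Sox8, Comp, Matn3, Matn4, Chad and Hapln1, out of 55450 genes in the deposited count table, and all 10 were found by symbol, once each. They were chosen by their part in cartilage, after Acan and cartilage collagen had been seen among the largest rises in B1/P tumors, so comparisons that hold B1/P tumors are given as a description, and nothing is read from the calls in them. RNA was sequenced from 15 mammary tumors, 5 for each model (B1/P/Rbf, P/Rbf, B1/P), and from 3 normal mammary glands, each from a different female C57Bl/6 mouse. B1/P/Rbf mice had the genotype Brca1fl/fl/Trp53fl/fl/TgK18GT121Tg/+, B1/P mice were Brca1fl/fl/Trp53fl/fl, P/Rbf mice were Trp53fl/fl/TgK18GT121Tg/+ and the glands were wild type. All 3 tumor models therefore share floxed Trp53, and the models whose name begins with B1 also share floxed Brca1, for deletion by Cre. The TgK18GT121 transgene gives, after Cre recombination, a fragment of SV40 large T antigen (T121) under the keratin 18 promoter, which inactivates pRb and the related proteins p107 and p130. B1/P/Rbf and P/Rbf tumors are together called T121 tumors below. Cre came from an adenovirus with a CMV promoter that was injected into mammary ducts, so it was not limited to one type of duct cell. The glands were wild type, and no injection of them is described in the sources used here. Tumors were taken at a size end point. The study gives the age at injection and the mean survival of each model, shortest for B1/P/Rbf and longest for B1/P mice. The age of each sampled mouse is not given in the sources used here.

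Cartilage matrix is built around type II, IX and XI collagen fibrils and aggregates of aggrecan, a proteoglycan carrying chondroitin sulfate chains that Hapln1 (link protein) fixes to hyaluronan. Comp, the matrilins Matn3 and Matn4, and chondroadherin (Chad) are adaptor proteins that join collagens, proteoglycans and cells. Sox9 is the transcription factor required for chondrocyte fate, with Sox5 and Sox6 as its partners on cartilage genes and Sox8 as its close relative. These SOX factors are not limited to cartilage, since Sox9 is present in many epithelia, Sox6 in skeletal muscle and Sox8 in neural crest derivatives. In mammary tissue, cartilage-like matrix is known from metaplastic and mixed tumors.

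The total expected count ranged from 27661173 to 37794889 per sample with a median of 33802255. Values are given in CPM, the count scaled to library size, after TMM scaling, and 3 counts, the level used here as a floor, corresponded to between 0.0754 and 0.102 CPM in tumors and 0.0982 and 0.117 CPM in glands. As a check of the genotypes, whole-gene Trp53 ranged from 54.4 to 71.8 CPM in the glands and from 6.75 to 24.3 CPM in the 15 tumors, and Brca1 ranged from 44.9 to 116 CPM in P/Rbf tumors, from 8.13 to 27.9 CPM in B1/P tumors and from 21.1 to 45.0 CPM in B1/P/Rbf tumors. The library labelled B1/P/Rbf 208863, at 45.0 CPM, thus overlapped the P/Rbf tumors, and the wild type glands had 4.61 to 5.99 CPM of Brca1, below every tumor, so that whole-gene Brca1 does not fully separate the genotypes. RT-qPCR in the study likewise describes a partial loss of Brca1 expression in that tumor. Leaving out 208863 changed no call of the 10 genes in the comparisons without B1/P tumors. One alternative fit held a term for 2 sets of libraries taken from an earlier analysis of these data. No label names such sets and no value given here shows them, and the methods describe a single pool of 18 samples, so they are an assumption of that fit. One set holds every B1/P/Rbf tumor with 225068, 225070 and 246361 of the B1/P group, and the other holds the remaining libraries. B1/P is the only group split between these sets, so the term is estimated from B1/P tumors, also in comparisons without them. The glands held skeletal muscle and fat, with 25623 to 50590 CPM summed over 8 skeletal muscle markers and 20386 to 26116 CPM over 8 adipocyte markers, against at most 645 and 237 CPM in any tumor. In bulk RNA, fewer cells of a type and less RNA per cell cannot be told apart.

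Promoter windows of 300 bases, from 250 before to 50 after the RefSeq transcription start, were found for 8 of the 10 genes in RefSeq sequences of build GRCm38.p6. Windows are shown 5′ to 3′ for the 5 genes whose B1/P values lay above every B1/P/Rbf value, so that the sequence at their start sites can be seen beside the values. This choice rests on B1/P values and has no share of all genes beside it, so nothing is read from it. The Sox5 window is that of an internal start, 834.9 kb downstream of the 5′ end of the gene. They are Acan at chr7:79052976-79053275 on the plus strand, and on the minus strand Matn4 at chr2:164405111-164405410, Sox5 at chr6:143947057-143947356, Sox6 at chr7:116038695-116038994 and Sox8 at chr17:25570637-25570936. Capitals mark the words ACAAAG and ACAATG, which hold the core bound by SOX proteins and were searched on both strands.
Acan: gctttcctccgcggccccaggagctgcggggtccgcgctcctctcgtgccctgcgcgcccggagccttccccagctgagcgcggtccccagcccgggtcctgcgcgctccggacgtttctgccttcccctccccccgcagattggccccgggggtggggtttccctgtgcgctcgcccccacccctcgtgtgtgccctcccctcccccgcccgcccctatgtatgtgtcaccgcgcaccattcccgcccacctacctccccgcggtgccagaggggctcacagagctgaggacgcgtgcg
Matn4: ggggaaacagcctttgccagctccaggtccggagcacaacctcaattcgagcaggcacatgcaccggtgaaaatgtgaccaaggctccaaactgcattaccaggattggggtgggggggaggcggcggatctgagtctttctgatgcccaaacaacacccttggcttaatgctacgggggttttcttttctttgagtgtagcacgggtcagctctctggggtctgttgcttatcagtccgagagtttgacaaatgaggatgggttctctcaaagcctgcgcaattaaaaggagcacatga
Sox5: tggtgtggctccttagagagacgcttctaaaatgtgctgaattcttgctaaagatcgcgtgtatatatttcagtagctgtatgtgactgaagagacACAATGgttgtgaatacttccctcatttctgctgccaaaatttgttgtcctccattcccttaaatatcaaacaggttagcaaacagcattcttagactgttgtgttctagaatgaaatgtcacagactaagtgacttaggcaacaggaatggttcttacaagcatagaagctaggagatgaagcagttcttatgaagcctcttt
Sox6: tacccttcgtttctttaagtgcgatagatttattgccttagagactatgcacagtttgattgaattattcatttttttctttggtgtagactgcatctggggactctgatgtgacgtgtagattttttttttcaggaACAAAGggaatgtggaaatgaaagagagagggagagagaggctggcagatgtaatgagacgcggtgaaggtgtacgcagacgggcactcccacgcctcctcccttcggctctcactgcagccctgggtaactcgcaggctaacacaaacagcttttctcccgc
Sox8: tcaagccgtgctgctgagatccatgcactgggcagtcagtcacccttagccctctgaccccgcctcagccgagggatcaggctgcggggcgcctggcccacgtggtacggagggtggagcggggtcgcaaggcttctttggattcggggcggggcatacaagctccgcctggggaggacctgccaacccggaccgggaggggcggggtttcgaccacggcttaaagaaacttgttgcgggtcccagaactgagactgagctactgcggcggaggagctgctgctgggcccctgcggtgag
ACAAAG occurs in 18.7% and ACAATG in 12.6% of all 32851 windows, and 28.6% hold at least 1 of them. The words and their reverse complements cannot overlap one another. Of the 5 windows shown, Sox6 holds ACAAAG and Sox5 holds ACAATG, and neither word is in those of Acan, Matn4 or Sox8. The Sox6 locus has 6 listed windows, 5 with at least 1 of the words, and the windows of Chad, Hapln1, Matn3 and the second of Matn4 have neither. The 5 windows shown differ in base composition, from 74.0% GC with 31 CG dinucleotides at Acan to 39.7% GC with 3 at Sox5, around a median of 52.7% GC and 7 CG dinucleotides over all windows. A match in letters is a description of the sequence and shows no binding.

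**Figure D1:**
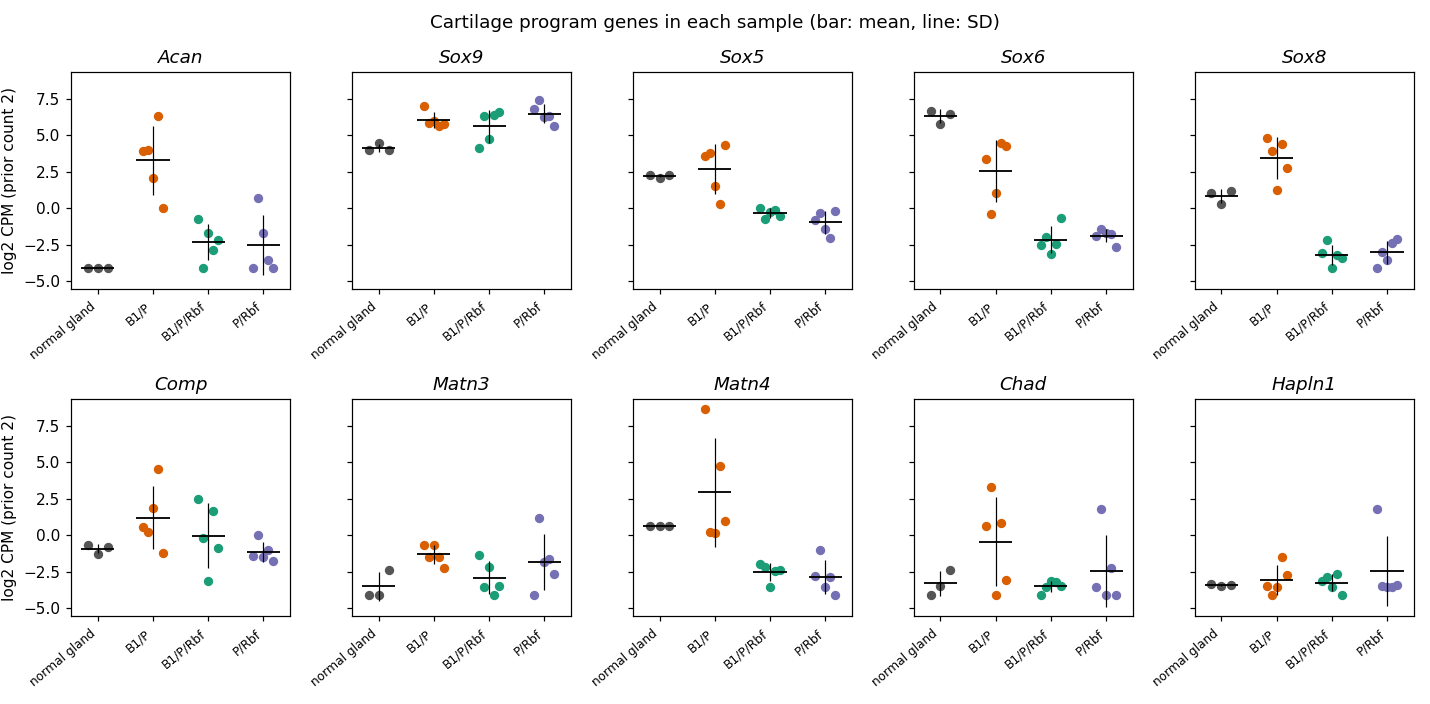
Log2 CPM (prior count of 2) of the 10 cartilage program genes in each sample, by group; points are mice, bars are means and lines are SD (n = 3 glands and 5 tumors of each model). Acan, Sox5, Sox6, Sox8 and Matn4 of all 5 B1/P tumors lie above all 5 B1/P/Rbf tumors, whereas Sox9 overlaps among the tumor groups and Sox6 is highest in the glands. B1/P tumors led to the choice of the genes and the share of all genes with such a gap is not given, so this describes ranges only.

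The matrix genes were measured first. Acan, encoding the aggrecan core protein (chromosome 7, 79053483 to 79115099, plus strand, GRCm38), was at 15.2, 15.8, 4.12, 0.946 and 81.6 CPM in B1/P tumors 225068, 225070, 246361, 248662 and 255232. In B1/P/Rbf tumors 208855, 208857, 208863, 209490 and 210906 it was at 0.539, 0, 0.248, 0.0761 and 0.162 CPM. P/Rbf tumors 287822, 287842, 287845, 290845 and 290860 had 0.0263, 0, 1.58, 0 and 0.253 CPM. No read pair was counted in any of the 3 glands, which allows up to 3 counts in each. Every B1/P tumor was above every B1/P/Rbf tumor, whereas P/Rbf tumor 287845 lay above B1/P tumor 248662, the lowest of its group. The B1/P mean of 23.5 ± 33.1 CPM (SD, n = 5) was 113-fold that of B1/P/Rbf tumors in the fitted model and at least 223-fold higher than the floor of the glands. Without tumor 255232 the mean was 9.00 CPM and these folds were 43.3 and at least 85.2. Without B1/P/Rbf tumor 208855 the fold over B1/P/Rbf tumors was 189.

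Matn4, the matrilin 4 gene (chromosome 2, 164389393 to 164405160, minus strand), was at 406, 1.10, 1.06, 1.89 and 26.4 CPM in B1/P tumors 225068, 225070, 246361, 248662 and 255232. B1/P/Rbf tumors had 0.0276 to 0.199 CPM, the 5 P/Rbf tumors 0 to 0.442 CPM and the 3 glands 1.47, 1.52 and 1.52 CPM. All 5 B1/P tumors were above all other tumors, but tumors 225070 and 246361 lay below every gland. Tumor 225068 held 93.0% of the summed B1/P value, and without it the log2 fold change of B1/P over B1/P/Rbf tumors moved from 9.37 to 5.85.

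Comp, which encodes cartilage oligomeric matrix protein (chromosome 8, 70373558 to 70382066), was at 1.40, 1.13, 3.64, 0.378 and 23.0 CPM in B1/P tumors 225068, 225070, 246361, 248662 and 255232. B1/P/Rbf tumors 208855, 208857, 208863, 209490 and 210906 had 5.59, 0.809, 0.0551, 3.09 and 0.487 CPM. P/Rbf tumors ranged from 0.238 to 0.946 CPM and glands from 0.360 to 0.586 CPM. B1/P and B1/P/Rbf tumors overlapped, with tumor 255232 alone above all B1/P/Rbf tumors, and without it their log2 fold change moved from 1.56 to −0.29. Comp was thus the matrix gene with the highest level in B1/P/Rbf tumors among the 6 measured here, also per length.

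Chad, encoding chondroadherin (chromosome 11, 94565047 to 94569127), was at 1.49, 10.1, 0, 0.0631 and 1.77 CPM in B1/P tumors 225068, 225070, 246361, 248662 and 255232, so that 2 of these tumors were at the floor. It was at the floor in all 5 B1/P/Rbf tumors. Among P/Rbf tumors, 287845 had 3.37 CPM and 287822 had 0.158 CPM, with the other three at 0 to 0.0288 CPM. Matn3, the matrilin 3 gene (chromosome 12, 8947929 to 8972028), was low throughout, from 0.158 to 0.578 CPM in B1/P tumors, 0 to 0.340 CPM in B1/P/Rbf tumors, 0 to 2.18 CPM in P/Rbf tumors and 0 to 0.135 CPM in glands. The highest Matn3 value was again that of P/Rbf tumor 287845. Hapln1, the link protein gene (chromosome 13, 89539796 to 89611652), did not pass the filter on low counts. It reached 122 counts and 3.51 CPM in P/Rbf tumor 287842 and at most 10 counts in any other sample, including the B1/P tumors with the most Acan.

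The SOX genes followed other patterns. Sox9 (chromosome 11, 112782224 to 112787760) was at 126, 58.2, 61.5, 55.3 and 50.1 CPM in B1/P tumors 225068, 225070, 246361, 248662 and 255232. B1/P/Rbf tumors 208855, 208857, 208863, 209490 and 210906 had 17.3, 78.6, 26.3, 83.6 and 97.3 CPM. P/Rbf tumors 287822, 287842, 287845, 290845 and 290860 had 77.9, 113, 170, 50.2 and 74.8 CPM, and the glands had 15.8, 22.1 and 15.8 CPM. The 3 tumor groups overlapped, and of the 15 tumors 208855 alone lay within the range of the glands. The tumor with the most Acan, 255232, had the lowest Sox9 of the B1/P group.

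Sox5 (chromosome 6, 143828425 to 144781977), a SOX factor without a transactivation domain that acts with Sox6, was at 12.0, 13.6, 2.81, 19.9 and 1.18 CPM in B1/P tumors 225068, 225070, 246361, 248662 and 255232. B1/P/Rbf tumors had 0.540 to 0.964 CPM, the P/Rbf tumors 0.184 to 0.817 CPM and the glands 4.22, 4.81 and 4.87 CPM. Each B1/P tumor exceeded every tumor with T121, and 246361 and 255232 were below the glands. Sox6 (chromosome 7, 115470872 to 116038796) was at 10.5, 0.681, 1.96, 18.9 and 21.6 CPM in the same B1/P tumors. It had 0.0551 to 0.552 CPM in B1/P/Rbf tumors and 0.102 to 0.315 CPM in P/Rbf tumors, against 101, 54.8 and 89.4 CPM in glands 330154, 330155 and 330156. The glands were therefore the highest group and B1/P tumors an intermediate one, with no overlap between either and the T121 tumors.

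Sox8 (chromosome 17, 25565892 to 25570686) was at 27.5, 15.0, 2.31, 6.81 and 20.8 CPM in B1/P tumors 225068, 225070, 246361, 248662 and 255232. The glands had 1.99, 1.18 and 2.20 CPM, and no T121 tumor exceeded 0.170 CPM. B1/P tumors lay above the glands, and the glands above both T121 groups, without overlap. Sox8 was over the 3-count floor in 1 of 5 B1/P/Rbf tumors and 2 of 5 P/Rbf tumors, compared with 5 of 5 B1/P tumors.

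Of the 9 cartilage program genes that passed the filter, 6 were called higher in B1/P than in B1/P/Rbf tumors (Acan, Sox5, Sox6, Sox8, Matn4 and Chad) and 0 lower, where a call is an edgeR quasi-likelihood p of at most 0.05 after Benjamini-Hochberg adjustment and where 9.29% of all 19186 genes were called higher and 7.36% lower. Against P/Rbf tumors 6 were called higher (Acan, Sox5, Sox6, Sox8, Matn4 and Comp) and 0 lower, beside 10.8% and 8.43% of all genes. Against glands 4 were called higher (Acan, Sox9, Sox8 and Matn4) and Sox6 was called lower, beside 16.8% and 16.9% of all genes (49.9% of calls were higher, and 67.8% without TMM scaling). Because B1/P tumors led to the choice of these genes, nothing is read from these counts. The median log2 fold change of the 9 genes was 5.69 for B1/P over B1/P/Rbf tumors (4.99 with Chad at its bound), 4.27 over P/Rbf tumors and 3.01 over glands, with medians of 0.06, 0.05 and 0.12 over all genes. As a description, Chad had a log2 fold change of 6.19 (SE 1.91) against B1/P/Rbf tumors, and Comp, which was not called, had 1.56 (SE 1.02). The call of Chad was lost in 7 of 18 alternatives, among them limma-voom and leaving out any 1 of the 5 B1/P/Rbf tumors. Chad was at the floor in every B1/P/Rbf tumor, so its fold is a fitted value against an undetected group. That value ranged from 4.50 to 6.51 with 1 sample left out. The call of Comp against P/Rbf tumors was lost in 7 of 18, and without tumor 255232 its log2 fold change moved from 3.71 to 1.86. Against glands the call of Matn4 was lost in 7 of 16 alternatives, that of Sox8 in 3 of 16, that of Sox9 in 2 of 17 and that of Sox6 in 1 of 16.

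The B1/P tumors did not share one profile. Tumor 255232 held the highest Acan, Comp, Sox6 and Hapln1 of the group, with 69.4% of the summed Acan and 77.9% of the summed Comp. Tumor 225068 was highest for Matn4, Sox8 and Sox9, tumor 225070 for Chad with 75.3% of the sum, tumor 248662 for Sox5 and tumor 246361 for Matn3. The ratio of the highest to the lowest B1/P tumor was 385 for Matn4, 86.3 for Acan, 60.9 for Comp and 31.7 for Sox6, whereas it was 2.51 for Sox9 and 3.67 for Matn3. Tumor 248662 had the most Sox5 and the second most Sox6 of the group together with its lowest Acan, Comp and Matn3. Of the 10 genes, 8 reached 1 CPM in tumors 225068 and 255232, 7 in 225070 and 246361, and 5 in 248662.

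**Figure D2:**
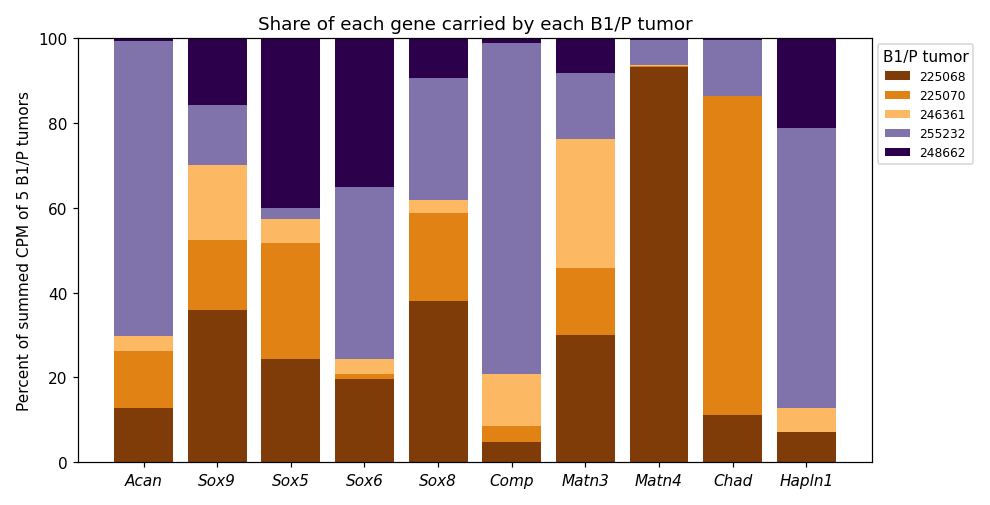
Percent of the summed CPM of the 5 B1/P tumors that each tumor carried, for each of the 10 genes (stacked bars, 1 color for each mouse). Tumor 225068 carries 93.0% of Matn4, 255232 carries 69.4% of Acan and 77.9% of Comp, and 225070 carries 75.3% of Chad, while Sox9 and Matn3 are spread over all 5 tumors.

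Comparisons without B1/P tumors were tested. Against the glands, Sox9 rose and Sox5, Sox6 and Sox8 fell in B1/P/Rbf tumors, so that 1 of the 9 genes was called higher and 3 lower, beside 17.1% and 20.0% of all genes. The same count of 1 higher and 3 lower, for the same 4 genes, was found in P/Rbf tumors, which share the gland samples, beside 17.4% and 20.3% of all genes. Without TMM scaling, 64.0% and 59.9% of all called genes were higher in B1/P/Rbf and P/Rbf tumors, against 46.0% and 46.1% with it, and the 4 genes kept their calls and directions. Sox9 had a log2 fold change of 1.76 (SE 0.54, adjusted p = 0.0165, edgeR) in B1/P/Rbf tumors, where 4 of 5 were above every gland, and of 2.44 (SE 0.56, adjusted p = 0.00247, edgeR) in P/Rbf tumors, where 5 of 5 were. The former call was lost without gland 330154 or 330156, with adjusted p of 0.0631 or 0.0662 at log2 fold changes of 1.715 and 1.707. With the term for the 2 assumed sets it was 1.12 (adjusted p = 0.342), and adjusted p ranged from 0.00333 to 0.342 over the alternatives. That term is estimated from the B1/P tumors, so the values with it are not free of them. On the log2 scale Sox6 fell by 8.62 (SE 0.97, adjusted p = 4.2e-06, edgeR) in B1/P/Rbf and fell by 8.49 (SE 0.97, adjusted p = 4.4e-06, edgeR) in P/Rbf tumors. Sox8 fell by 4.80 (SE 0.91, adjusted p = 0.000593, edgeR) and fell by 4.48 (SE 0.90, adjusted p = 0.000901, edgeR). Sox5 fell by 2.62 (SE 0.66, adjusted p = 0.00532, edgeR) and fell by 3.18 (SE 0.67, adjusted p = 0.0014, edgeR), and these calls were lost in limma-voom, where the log2 fold changes were −2.02 and −2.33 with adjusted p of 0.0874 and 0.055. With the term for the assumed sets, the fold of Sox5 in B1/P/Rbf tumors was −2.47 on the log2 scale, near that without it, at an adjusted p of 0.133, the highest of its alternatives. For each of these 3 genes all 10 T121 tumors were below all 3 glands. The share of all genes with such a gap is not given here, so this describes ranges only.

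Beside these falls stand the other tissues of the glands. The summed skeletal muscle markers were at 25623 to 50590 CPM in glands, 10.7 to 32.0 CPM in B1/P/Rbf tumors and 2.04 to 16.0 CPM in P/Rbf tumors, and all 8 of them were called lower in each T121 group, as were all 8 adipocyte markers and all 6 lymphocyte markers. Schwann cell markers summed to 350 to 542 CPM in glands, 130 to 237 CPM in B1/P/Rbf tumors and 108 to 321 CPM in P/Rbf tumors. Of 8 basal and myoepithelial markers, which summed to 335 to 481 CPM in glands, 65.0 to 352 CPM in B1/P/Rbf and 87.2 to 1463 CPM in P/Rbf tumors, Myh11, Mylk, Acta2 and Oxtr were called lower in B1/P/Rbf tumors, and Myh11 and Oxtr in P/Rbf tumors with Krt14 higher. Of 6 endothelial markers, at 382 to 444 CPM in glands against 164 to 406 and 96.6 to 483 CPM, Tek, Pecam1 and Kdr were called lower in both T121 groups and Cdh5 in P/Rbf tumors. The part of these lists in the falls of Sox5, Sox6 and Sox8 was not tested. Luminal epithelial markers were at 1794 to 2302 CPM in glands, 3754 to 5764 CPM in B1/P/Rbf tumors and 4461 to 8832 CPM in P/Rbf tumors. Of the 8 markers Cdh1 and Epcam were called higher in both T121 groups, Krt18 in P/Rbf tumors and 0 lower. In B1/P tumors they summed to 862 to 2301 CPM, with Sox9 at 50.1 to 126 CPM against 15.8 to 22.1 CPM in glands. B1/P/Rbf tumor 208855, with Sox9 within the range of the glands at 17.3 CPM, had 4798 CPM of these markers. The part of luminal markers in the rise of Sox9 was not tested.

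**Figure D3:**
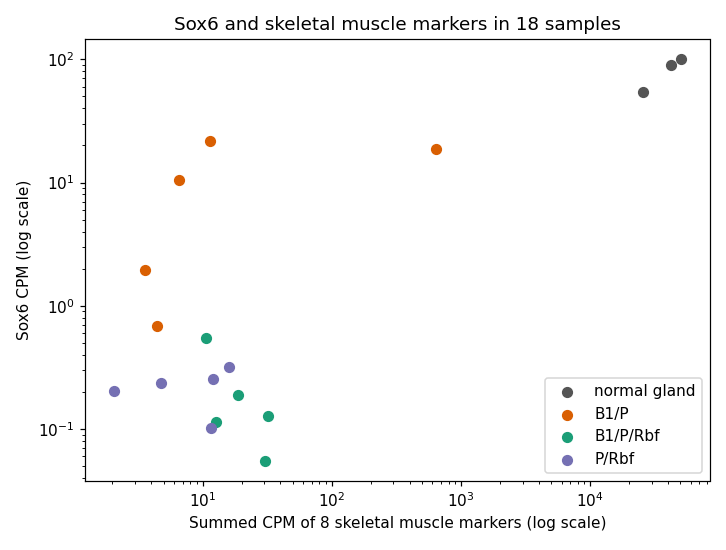
Sox6 CPM against the summed CPM of 8 skeletal muscle markers in 18 samples, both on log scales; each point is a mouse, colored by group. The 3 glands lie at the top right, with 54.8 to 101 CPM of Sox6, and the B1/P tumors lie above the T121 tumors at muscle marker levels of 3.59 to 645 CPM.

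The remaining genes did not pass the test against glands in the fit of all 18 samples, which shares 1 estimate of spread with the B1/P tumors. Matn4 had a log2 fold change of −3.51 (SE 1.56, adjusted p = 0.0867, edgeR) in B1/P/Rbf and of −3.56 (SE 1.57, adjusted p = 0.0838, edgeR) in P/Rbf tumors, although every T121 tumor was below every gland. In fits of the compared groups alone, Matn4 was called lower in both. There the log2 fold changes were −3.525 (adjusted p = 0.000728, edgeR) in B1/P/Rbf and −3.55 (adjusted p = 0.0193, edgeR) in P/Rbf tumors. Acan, for which a fold against glands without counts is no more than a bound, was over the floor in 3 of 5 B1/P/Rbf and 2 of 5 P/Rbf tumors (adjusted p of 0.139 and 0.0839, edgeR, and of 0.0288 and 0.00855 in DESeq2, which called both), and its mean was at least 1.94-fold and 3.51-fold higher than the floor of the glands. The latter rests on tumor 287845, without which the P/Rbf mean of 0.371 CPM was 0.0699 CPM, below that floor, and the former was 1.15-fold without tumor 208855. Matn3 had a log2 fold change of 3.48 (SE 1.59, adjusted p = 0.0944, edgeR) in P/Rbf tumors, which was 1.63 without tumor 287845. Comp and Chad overlapped the glands in both groups. The median log2 fold change of the 9 genes was −0.72 in B1/P/Rbf tumors (0 with Acan and Chad at their floors) and −0.10 in P/Rbf tumors, beside 0.05 over all genes in each.

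**Figure D4:**
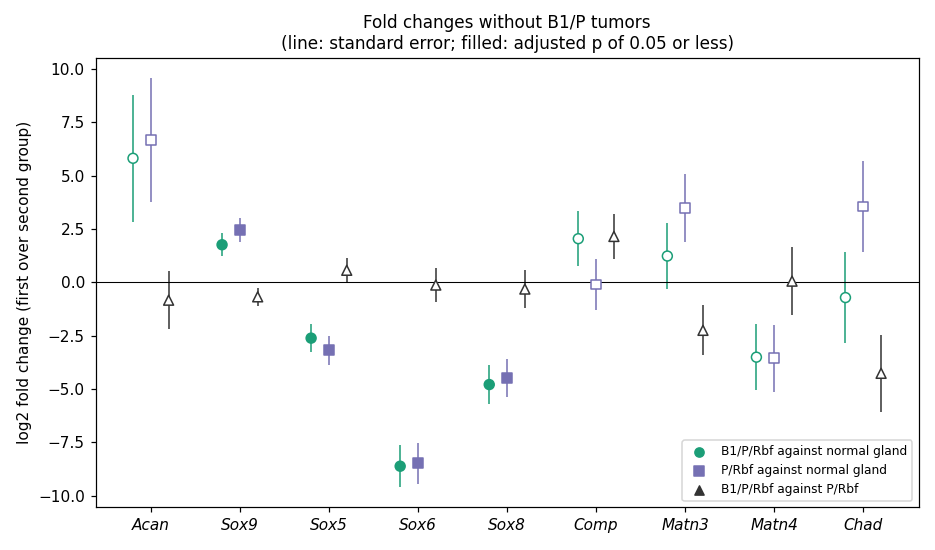
Log2 fold changes of the 9 genes that passed the filter in the 3 comparisons without B1/P tumors, from one edgeR fit; lines are standard errors and filled symbols mark an adjusted p of 0.05 or less. Sox9 is above 0 and Sox5, Sox6 and Sox8 are below 0 in both T121 groups relative to glands, and no symbol is filled for B1/P/Rbf against P/Rbf tumors.

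Whether Brca1 deletion altered these genes in the presence of T121 was addressed by B1/P/Rbf against P/Rbf tumors. None of the 9 genes was called, 0 higher and 0 lower, beside 0.219% and 0.0625% of all genes, and edgeR gave 1 gene (Chad) an unadjusted p under 0.05. DESeq2 and limma-voom also called 0, with 2 (Comp and Chad) and 0 genes at an unadjusted p under 0.05. Most of these genes passed the filter through B1/P tumors or glands and had few counts here, with medians over the 10 T121 tumors of 1 for Chad, 2 for Sox8, 3.5 for Matn4, 4 for Acan, 4.5 for Matn3 and 7 for Sox6, so that for them a missing call says little. The medians were 16 counts for Comp, 21.5 for Sox5 and 2958.5 for Sox9. Chad had a log2 fold change of −4.27 (SE 1.80, adjusted p = 0.253, edgeR), which was −0.48 without P/Rbf tumor 287845. For Comp it was 2.15 (SE 1.06, adjusted p = 0.332, edgeR), and every P/Rbf tumor was exceeded by 2 of the 5 B1/P/Rbf tumors. The SE of the other genes was between 0.43 and 1.59, largest for Matn4. Sox9 had the smallest, with a log2 fold change of −0.68 (SE 0.43, adjusted p = 0.471, edgeR).

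Levels were compared between genes per kilobase of exon. In B1/P tumors the median was highest for Sox9, at 14.1 CPM per kb, followed by Sox8 at 4.82, Acan at 2.03, Chad at 0.889, Sox5 at 0.836 and Sox6 at 0.705 CPM per kb, and then by Comp at 0.471, Matn4 at 0.366, Matn3 at 0.0983 and Hapln1 at 0.00539 CPM per kb. The range of Sox9, from 12.1 to 30.5 CPM per kb, lay above every value of the other genes except Matn4 in tumor 225068, at 78.5 CPM per kb. From Sox8 to Matn4 each gene overlapped its neighbors in this order over the 5 tumors, whereas Matn3 lay below Matn4 and Hapln1 below Matn3 without overlap. In the glands Sox6 came first with a median of 6.03 CPM per kb, followed by Sox9 with 3.82 CPM per kb. In both T121 groups Sox9 came first, with a median of 19.0 CPM per kb in B1/P/Rbf and 18.8 CPM per kb in P/Rbf tumors, and no other gene had a median above 0.273 CPM per kb. As a set, the 10 genes were not all high in any group. In B1/P tumors, Hapln1 was near the floor, Matn3 was at most 0.578 CPM, Sox9, Comp, Chad and Matn3 overlapped the B1/P/Rbf tumors and Sox6 lay below the glands.

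Of the collagens that fill cartilage, those of types II and IX were high in the same B1/P tumors. Col2a1, the type II collagen of hyaline cartilage, was at 386, 101, 16.8, 2.71 and 24.8 CPM in B1/P tumors 225068, 225070, 246361, 248662 and 255232, and at most 0.88 CPM in any other sample. Col9a1, an alpha chain of the type IX collagen that coats those fibrils, was at 62.7, 134, 62.2, 21.8 and 943 CPM in the same tumors and at most 2.42 CPM elsewhere. Col9a3, of the same collagen, was at 1866, 38.5, 903, 434 and 431 CPM against at most 7.92 CPM elsewhere. Tumor 248662 was lowest for Col2a1 and Col9a1 as it was for Acan, and 255232 was highest for Col9a1 and Acan but not for Col2a1. Of the 8 cartilage collagens, Col2a1, Col9a1, Col9a2, Col9a3 and Col11a1 were called higher in B1/P than in B1/P/Rbf tumors and 0 lower, beside 9.29% and 7.36% of all genes, with a median log2 fold change of 5.10. Col10a1, Col11a2 and Col27a1 were not called there, and Col11a2 was at 3.18 to 21.6 CPM in B1/P and 1.64 to 24.4 CPM in P/Rbf tumors. Cartilage collagen was among the rises that led to the choice of the 10 genes, so the count of calls is no independent support. Between T121 tumors and glands, where a test applies, Col10a1 rose in both groups, Col9a2 fell in both and Col9a1 fell in P/Rbf tumors. Thus 1 of the 8 rose in each group and 1 and 2 fell, beside 17.1% and 20.0%, and 17.4% and 20.3%, of all genes. Col10a1 had no counts in any gland, so its fold is no more than a bound.

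Among 16 other cartilage matrix genes, 13 could be tested and 6 were called higher in B1/P than in B1/P/Rbf tumors (Cnmd, Matn2, Snorc, Scrg1, Prelp and Chadl) and 0 lower, beside 9.29% and 7.36% of all genes. Snorc, a small chondrocyte membrane proteoglycan, was at 119, 0.474, 12.2, 113 and 112 CPM in the B1/P tumors in the order above, 5.24 to 11.5 CPM in glands and at most 0.584 CPM in T121 tumors. Against glands it fell by 5.97 (SE 1.40, adjusted p = 0.0031, edgeR) in B1/P/Rbf tumors and in P/Rbf tumors fell by 6.54 (SE 1.45, adjusted p = 0.0020, edgeR) on the log2 scale. Its highest T121 values were those of B1/P/Rbf tumor 210906 (0.584 CPM) and P/Rbf tumor 287845 (0.221 CPM), with at most 0.101 CPM in the others. Of the 13 genes, 0 were called higher than in glands, with 2 lower in B1/P/Rbf and 4 in P/Rbf tumors, beside 20.0% and 20.3% of all genes. Cnmd, encoding the cartilage angiogenesis inhibitor chondromodulin, was at 48.8, 0.118, 6.96, 0.221 and 14.0 CPM in the B1/P tumors. Chadl, a relative of Chad, was at 38.1, 14.1, 2.51, 15.7 and 42.3 CPM in these tumors, above 0.540 to 2.62 CPM in the other samples in all but 246361. Matn1, the matrilin that is most particular to cartilage, was at the floor in every group, and Ucma was at the floor in glands and P/Rbf tumors.

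**Figure D5:**
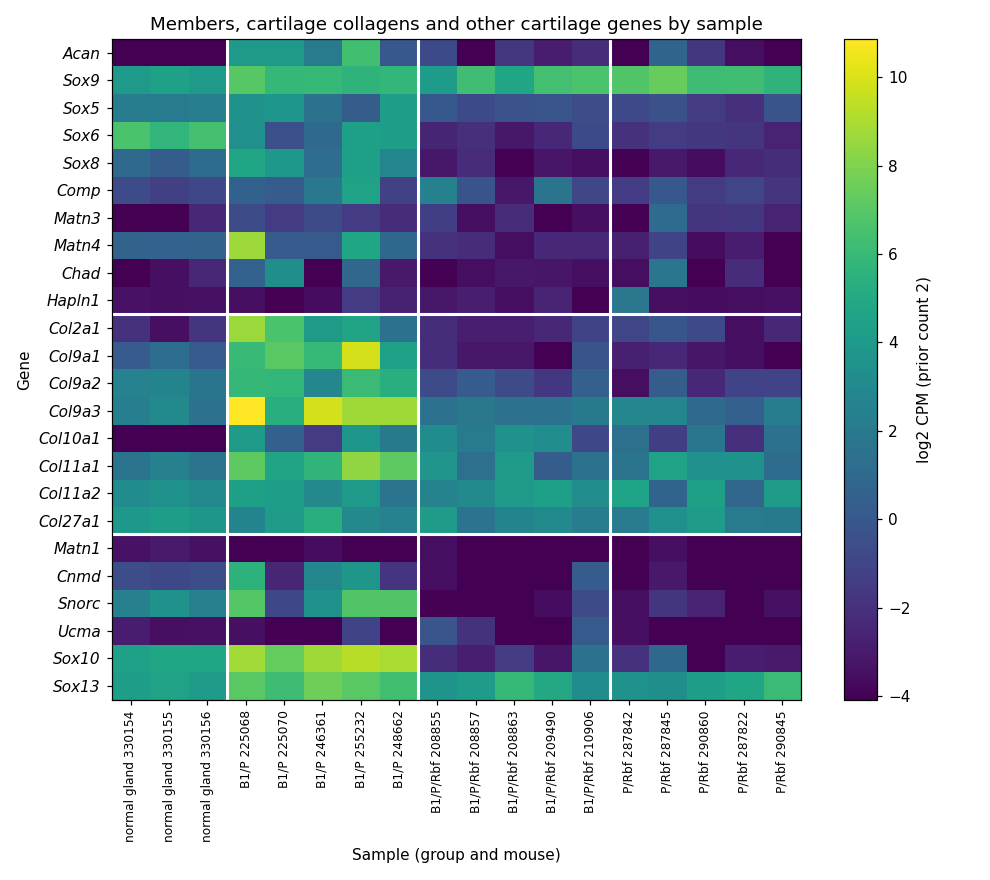
Heat map of log2 CPM (prior count of 2) for the 10 genes (top), 8 cartilage collagens (middle) and 6 other genes (bottom) in the 18 samples, labelled by group and mouse. Col2a1, Col9a1, Col9a3 and Sox10 are brighter in all 5 B1/P tumors than in any T121 tumor, whereas Matn1, Ucma and Hapln1 are dark in most samples. Because B1/P tumors led to the choice of the 10 genes, this describes ranges only.

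Family relatives of the 10 genes were measured as well. Sox10, the SOX E factor closest to Sox8 and Sox9 and a regulator of neural crest and mammary cells, was at 439, 164, 428, 493 and 612 CPM in B1/P tumors 225068, 225070, 246361, 248662 and 255232, at 22.0 to 27.4 CPM in glands and at most 2.73 CPM in T121 tumors. Relative to glands it fell by 5.29 in B1/P/Rbf tumors (SE 1.15, adjusted p = 0.00176, edgeR) and in P/Rbf tumors it fell by 5.85 (SE 1.18, adjusted p = 0.000965, edgeR) on the log2 scale. The size of these falls rests on B1/P/Rbf tumor 210906, at 2.73 CPM, and P/Rbf tumor 287845, at 1.89 CPM. No other T121 tumor exceeded 0.303 CPM of Sox10. Thus of the 3 SOX E genes, Sox8 and Sox10 fell and Sox9 rose in T121 tumors relative to glands. Sox13, the third SOX D gene beside Sox5 and Sox6, was at 73.2 to 190 CPM in B1/P tumors and overlapped between T121 tumors (9.15 to 67.6 CPM) and glands (17.3 to 22.8 CPM), with log2 fold changes of 0.41 (SE 0.61) and 0.48 (SE 0.61) that were not called. Versican (Vcan), a large proteoglycan related to aggrecan, was at 143 to 389 CPM in B1/P tumors, 8.36 to 95.1 CPM in T121 tumors and 5.60 to 14.2 CPM in glands. Of the 11 relatives tested, 5 were called higher in B1/P than in B1/P/Rbf tumors and 0 lower, beside the same shares of all genes.

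Of 22 chondrogenesis regulators tested, 6 were called higher in B1/P than in B1/P/Rbf tumors (Mef2c, Ptch1, Wwp2, Gdf5, Creb3l2 and Runx2) and 1 lower (Fgfr3), beside 9.29% and 7.36% of all genes. Fgfr3, a growth factor receptor that restrains growth plate chondrocytes and is also present in epithelia, was at 3.08 to 37.8 CPM in B1/P tumors, 66.4 to 411 CPM in B1/P/Rbf tumors and 13.0 to 538 CPM in P/Rbf tumors. It rose against glands (9.42 to 11.6 CPM) with log2 fold changes of 4.22 (SE 1.13, adjusted p = 0.0075, edgeR) and 3.98 (SE 1.11, adjusted p = 0.00961, edgeR). The P/Rbf median was 48.1 CPM, against 538 CPM in tumor 290860, and the fold without that tumor is not given here. Gdf5, a joint growth factor, was at 0.553 to 8.81 CPM in B1/P tumors and fell against glands in both T121 groups. Wwp2, a ubiquitin ligase whose gene carries a microRNA of cartilage, was at 185 to 1010 CPM in B1/P tumors and 46.2 to 82.7 CPM in T121 tumors, and 0.25 (SE 0.39) and 0.45 (SE 0.39) were its log2 fold changes against glands. Against glands 4 regulators rose and 3 fell in B1/P/Rbf tumors, and 5 rose and 3 fell in P/Rbf tumors, shares that are near the 17.1% and 20.0%, and 17.4% and 20.3%, of all genes.

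The enzymes that make and cut the sugar chains and core of aggrecan moved in both directions. Of 25 chondroitin sulfate genes, B1/P exceeded B1/P/Rbf tumors in 9 called genes and was below them in 2, beside 9.29% and 7.36% of all genes. Chst3, the sulfotransferase that modifies chondroitin at the 6 position of galactosamine, was lowest in T121 tumors and highest in glands, where it had 22.3 to 34.6 CPM, and it fell by 5.87 (SE 0.72) in B1/P/Rbf and fell by 5.86 (SE 0.72) in P/Rbf tumors on the log2 scale. Chsy3, a chondroitin synthase, was at 1.43 to 4.51 CPM in B1/P tumors and 29.4 to 71.4 CPM in B1/P/Rbf tumors, and rose against glands in both T121 groups (log2 fold changes of 4.17 and 2.86, SE 0.77 and 0.72, adjusted p of 0.000476 and 0.00482, edgeR). Chst15 had log2 fold changes of −2.57 and −2.66 and fell in both. Of 2 hyaluronan synthases tested, Has2 rose against glands in both T121 groups (2.83 and 2.97, SE 0.85 and 0.86) and 0 were called between B1/P and B1/P/Rbf tumors. Of 9 aggrecan turnover genes, the aggrecanases Adamts1, Adamts4 and Adamts5 were called higher in B1/P than in B1/P/Rbf tumors and 0 lower, beside 9.29% and 7.36% of all genes. Against glands 3 of the 9 rose in B1/P/Rbf tumors (Adamts4, Adamts9 and Mmp13) and 2 in P/Rbf tumors (Adamts4 and Mmp13). Adamts5 alone fell in both T121 groups, beside the shares of all genes against glands given above. In the comparison of the T121 models with each other, 0 genes of these 7 lists were called by edgeR.

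Marker lists of cell types were read beside these values. The 10 chondrocyte markers summed to 351 to 2580 CPM in B1/P tumors, 22.2 to 40.4 CPM in glands, 17.9 to 32.6 CPM in B1/P/Rbf tumors and 3.79 to 34.9 CPM in P/Rbf tumors. The highest sums were those of tumors 225068 and 255232, which also led Matn4 and Acan. Type II and IX collagen genes made most of each B1/P sum, as with 386 CPM of Col2a1 and 1866 CPM of Col9a3 in 225068. Cartilage collagen was among the rises that led to the choice of the 10 genes, so these sums are no independent support. Within the list, Col10a1 and Col11a2 overlapped between B1/P and T121 tumors, Matn1 was at the floor and Ucma was at most 0.414 CPM in B1/P tumors. The sums of 7 osteoblast markers overlapped between the groups, with 5.40 to 32.6 CPM in B1/P, 1.19 to 19.7 CPM in B1/P/Rbf and 2.13 to 69.1 CPM in P/Rbf tumors, and the highest of them, in P/Rbf tumor 287842, was mostly Alpl, an alkaline phosphatase also found outside bone. Within the list Sp7, an osteoblast transcription factor, was at 2.61, 0.0296, 0.0503, 0.820 and 5.94 CPM in B1/P tumors 225068, 225070, 246361, 248662 and 255232, 0.117 to 0.556 CPM in glands and at most 0.0507 CPM in T121 tumors. Of the 4 osteoblast markers tested, Sp7 alone was called higher in B1/P tumors than in either T121 group, and 0 were called lower. Dmp1 did not follow it, with 0.604 to 6.16 CPM in B1/P and 0.405 to 16.7 CPM in B1/P/Rbf tumors. The fibroblast list was at 3109 to 13594 CPM in B1/P tumors and 1027 to 5351 CPM in T121 tumors, basal and myoepithelial markers at 402 to 2247 against 65.0 to 1463 CPM, and luminal markers at 862 to 2301 against 3754 to 8832 CPM. Schwann cell markers overlapped, with 93.9 to 204 CPM in B1/P and 108 to 321 CPM in T121 tumors, as did endothelial markers with 140 to 359 and 96.6 to 483 CPM, and macrophage markers with 275 to 1202 and 163 to 584 CPM. Lymphocyte markers were at most 9.77 CPM in any tumor. The part of these cell types in the values of the 10 genes was not tested.

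The genes most like Acan, Sox9 and Sox6 were ranked by the Pearson correlation of log2 CPM over the 15 tumors, among 15356 genes, as a description that includes the difference between the models. Acan was most like Hykk (r = 0.954), Tnfrsf11b (r = 0.953), which encodes the decoy receptor osteoprotegerin, and Zfp637 (r = 0.934). Tnfrsf11b was at 11.3 to 34.3 CPM in B1/P tumors and 0.701 to 4.23 CPM in T121 tumors. For Sox6 the nearest genes were Snorc (r = 0.982), Arnt2 (r = 0.962) and Gjc3 (r = 0.955), a connexin of glial cells that ranged from 0.207 to 35.3 CPM in B1/P tumors and did not exceed 0.0270 CPM in T121 tumors. Sox9 had weaker neighbors, Tle6 (r = 0.786), Slpi (r = 0.770) and Inhbb (r = 0.767), none of which is a cartilage matrix gene.

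Genes on the other strand were checked because the counting of strand is not stated. Rbpjl shares 149 exon bases with Matn4 and had 754 counts in tumor 225068 and 44 in 255232, the 2 tumors with the most Matn4, and at most 4 elsewhere. The antisense gene 2810468N07Rik shares 329 exon bases with Sox8 and had 147 to 443 counts in B1/P tumors, 0 to 10 in T121 tumors and 68 to 91 in glands. For these pairs, reads of the gene and of its partner cannot be told apart from counts alone. Sox6os, antisense to Sox6 without shared exon bases, had 56, 77 and 103 counts in the glands and at most 1 in any tumor, including the B1/P tumors with 598 and 730 counts of Sox6.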

How the data were processed

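RNA from 15 mammary tumors and 3 normal glands, 1 library per mouse, was analysed, and the mouse is the replicate. The authors made stranded mRNA libraries, trimmed paired reads with cutadapt 1.18 and counted them with RSEM 1.3.0, per the labels and methods. The deposited values are expected counts per gene, neither normalized nor filtered, and 5.61% of them are not whole because RSEM divides ambiguous reads, whereas all 180 values of the 10 genes are whole. The methods name a human reference, but all 55450 identifiers and symbols are those of GENCODE M21 (GRCm38). Counts were rounded and fitted in R 4.3.3 with edgeR 4.0.16 in one quasi-likelihood model of 18 samples (TMM, filterByExpr with a minimum count of 10, 19186 genes kept), and p values were adjusted by Benjamini-Hochberg over all genes kept. Log2 CPM used a prior count of 2, and a group with at most 3 counts in every sample was at the floor.

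Genes named outside the 10 are the 3 with the largest absolute fold change of B1/P over B1/P/Rbf in each list, with a mean of at least 1 CPM, besides Col2a1, Sox10, Brca1, Trp53 and the 3 most correlated genes of Acan, Sox9 and Sox6. Further genes (Col9a2, Col10a1, Col11a1, Rbpjl and others) are named as the members of a count or because they overlap one of the 10, and Sp7, Alpl, Matn1, Ucma and single cell type markers were chosen after their values were seen. The 10 genes and all lists were chosen with earlier results of these data known. Alternatives were DESeq2 1.42.0, limma-voom (limma 3.58.1) with quantile normalization, library sizes without TMM, 3 other filters, a fit of the compared groups, a term for 2 assumed sets of libraries and leaving out each sample. Promoters were read in Python 3.11.15. Mice of a group differed by more than counting noise (chi-square of 27.2 to 565 for each degree of freedom). Since this sets separate mice against counting error alone, nothing about depth is read from it.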

Additional observations from a re-analysis of the deposited data

Results flagged for a closer look

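Among the 29 combinations of gene and tumor group examined for a sample far from its group, 2 stood out, where chance alone gives about 1 in 20. Sox9 in B1/P tumor 225068, at 126 CPM, lay away from the other B1/P tumors at 50.1 to 61.5 CPM, with a gap to the nearest of them of 0.779 of the range of log2 CPM. This tumor also had the highest Matn4 and Sox8 of the group and 386 CPM of Col2a1. Hapln1 in P/Rbf tumor 287842, at 3.509 CPM or 122 counts, lay away from the other P/Rbf tumors, which had 1 count each, with a gap of 0.974 of the range. The same tumor had 0 counts of Acan and Matn3 and 1 count of Chad, and 69.1 CPM over the osteoblast markers, the highest sum of any sample, of which Alpl alone made 66.5 CPM.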

How the results depend on the processing

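The 6 counts of called genes were 6, 6, 5, 4, 4 and 0 for B1/P against B1/P/Rbf, P/Rbf and glands, B1/P/Rbf against glands, P/Rbf against glands and B1/P/Rbf against P/Rbf tumors. With DESeq2 the count for P/Rbf tumors against glands was 7, with Acan, Matn3 and Matn4 added, that for B1/P/Rbf tumors against glands was 6, with Acan and Matn4 added, and that for B1/P tumors against glands was 7, with Comp and Chad added. The filter used in the study (a log2 CPM of 6 reached in 6 samples or more, which left 4551 genes) kept Sox9 alone and gave 0, 0, 1, 1 and 1 calls in the first 5 comparisons. With the term for 2 assumed sets of libraries the count was 3 for B1/P against glands and 2 for B1/P/Rbf against glands. Leaving out 1 sample gave 2 to 6 calls for B1/P against glands, with 3, 3 and 2 without glands 330154, 330155 and 330156. Over all genes, B1/P/Rbf against P/Rbf tumors gave 54 calls, 1026 with DESeq2, 26 with limma-voom, 5 with that term and 0 in a fit of these groups. Leaving out 1 tumor gave 131 calls without 209490, 29 without 208855, 22 without 210906, 17 without 208857, 9 without 287822 and 8 without 287845, with 50% to 86.4% of calls higher over all 10 omissions, so that this count rests on single tumors. B1/P against P/Rbf tumors gave 3684, and 1763 and 2008 in the fit of the compared groups and with that term, and B1/P/Rbf tumors against glands 7108, and 3879 with that term. The filter of the study gave 886, 866, 1600, 1760, 1669 and 3. The share of calls that were higher moved from 56.1% to 69.2% with that term in B1/P against P/Rbf tumors, and from 77.8% to 57.7% with DESeq2 and to 60.0% with the term in B1/P/Rbf against P/Rbf tumors. No paired analysis was possible because the labels give mouse numbers that no 2 groups share.

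Directions turned in genes that were not called. With limma-voom the log2 fold changes were 0.44 for Matn3 in B1/P against P/Rbf tumors, 0.47 for Chad in B1/P/Rbf tumors and 0.91 for Comp in P/Rbf tumors against glands, and 0.31 for Acan in B1/P/Rbf against P/Rbf tumors. Without TMM, which shifts the median of all genes against glands from 0.05 to 0.12 to values of 0.33 to 0.47, that of Comp in P/Rbf tumors against glands was 0.16. With the term for assumed sets, which is estimated from B1/P tumors, B1/P/Rbf against P/Rbf tumors gave 0.98 for Acan, 2.08 for Sox6 and −3.21 for Matn4. With 1 sample left out, values for B1/P against B1/P/Rbf tumors ranged from −0.11 to 0.45 for Sox9 and −0.29 to 2.41 for Comp, for B1/P against P/Rbf tumors from −0.90 to 1.32 for Matn3, and for P/Rbf tumors against glands from −0.56 to 0.083 for Comp and −0.24 to 5.10 for Chad. For B1/P/Rbf tumors against glands they ranged from −1.21 to 0.83 for Chad, and for B1/P/Rbf against P/Rbf tumors from −1.58 to 1.43 for Acan, −0.86 to 0.11 for Sox6, −0.24 to 1.33 for Matn4 and −1.05 to 0.13 for Sox8. The cause was not tested, except that fewer genes or samples entered some fits. Matn4 was called in T121 tumors against glands by DESeq2 (adjusted p of 0.0286 and 0.0275) and in the fits of the compared groups. Counts near the floor limit Acan, Sox6, Sox8, Matn3, Matn4, Chad and Hapln1 in T121 tumors, for which a missing call says little.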
